A study of Mus musculus with 48 samples.

Results

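Glutamate and GABA receptor subunits were taken from the gene tables of 48 libraries of mouse brain by their gene symbols. They are the genes of AMPA (Gria), kainate (Grik), NMDA (Grin), delta (Grid) and metabotropic (Grm) glutamate receptors and of GABA-A (Gabra, Gabrb, Gabrg, Gabrd, Gabre, Gabrr) and GABA-B (Gabbr) receptors. Of 45 such genes listed, 39 had entries, among 15591 genes found in either tissue, and all 39 were present and passed the filter on low counts in both tissues. The 6 without an entry in the tables used here, Gabra6, Gabre, Gabrr1, Gabrr3, Grin3b and Grm6, were not analysed. The lowest member was Gabrr2, with 8 to 25 reads per frontal cortex library.

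RNA came from hippocampus or frontal cortex of male C57BL/6 mice of postnatal day 63 to 91, an inbred strain with no genetic change named in the labels. Mice had spent sessions on 3 days in a stress or a control environment, and 60 minutes after each session they were injected intraperitoneally with esomeprazole, a proton pump inhibitor given against gastric acid, or with vehicle. The design text puts the dose at 2 mg/kg, whereas the treatment protocol prints grams in place of milligrams, and dissection followed 12 hours after the final injection. Each tissue had 4 groups of 6 libraries, namely stressed with esomeprazole, stressed with vehicle, non-stressed with esomeprazole and non-stressed with vehicle, so that all mice were injected and handled and none was naive. The labels do not say whether the libraries of a group came from separate mice, so p-values measure the spread between these libraries, which may be technical. In whole tissue, fewer cells of a type and less RNA per cell cannot be told apart.

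Glutamate carries most fast excitation in the brain, and GABA most fast inhibition. AMPA, kainate and NMDA receptors are ion channels built of 4 subunits each, GABA-A receptors are channels of 5 subunits, and metabotropic glutamate and GABA-B receptors act through G proteins. Which subunits a neuron makes sets the kinetics, calcium permeability and drug sensitivity of its receptors, and hippocampal and cortical neurons are known to use different mixtures.

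Each library held between 25.3 and 42.0 M gene reads. The no-feature share, the percentage of all reads that the counting step assigned to no gene, ranged from 5.03% to 20.6% in hippocampus and from 4.50% to 19.9% in frontal cortex. It was under 12% in 5 hippocampal libraries (1 of each stressed group, 1 non-stressed esomeprazole, 2 non-stressed vehicle) and in 7 cortical ones (1 non-stressed vehicle and 2 of each other group). A second difference between libraries concerned markers of neighbouring tissue. All 13 striatal markers present (of 15 listed) were detected in every library. Levels are given as CPM, a gene's share of the library's gene reads after scaling, which is not corrected for gene length. The summed level of these markers was 1209 to 3147 CPM in 5 hippocampal libraries, 4 from stressed esomeprazole and 1 from stressed vehicle mice, against 193 to 348 in the other 19. The 12 olfactory bulb markers present (of 15 listed), again detected in every library, summed to 171 to 254 CPM in 7 frontal cortex libraries, 4 of them non-stressed vehicle and 1 of each other group, against 1168 to 4145 in the other 17. Defining markers of the labelled tissues differed between them as follows: 6 of 7 dentate granule neuron markers were higher in hippocampus and none lower, and 6 of 10 cortical excitatory neuron markers were lower in hippocampus and 2 higher. Of 7 CA1 pyramidal neuron markers 4 were higher in hippocampus and 1 lower. Of 5 CA3 pyramidal neuron markers tested (of 7 listed) 3 were higher and 1 lower.

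Because base composition recurs in the results, coding stretches of 4 members are shown first, with G and C in capitals. Gria2 and Grik5 encode subunits of related glutamate channels, and the stretch is the coding sequence around their M3 transmembrane segment, at chr3:80702536-80702625 and chr7:25015886-25015973 (mm10, minus strand, GENCODE vM21 transcripts). Gabra2 and Gabrd encode subunits of GABA-A channels, and the stretch lies around the M2 transmembrane segment, which lines the pore, at chr5:70973566-70973627 and chr4:155386085-155386146 (mm10, minus strand). Each stretch is within 1 exon.
Gria2: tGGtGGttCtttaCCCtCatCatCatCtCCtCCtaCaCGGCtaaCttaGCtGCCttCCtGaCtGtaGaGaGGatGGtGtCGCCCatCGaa
Grik5: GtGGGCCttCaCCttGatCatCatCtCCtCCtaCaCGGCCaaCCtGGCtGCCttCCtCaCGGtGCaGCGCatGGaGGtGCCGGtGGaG
Gabra2: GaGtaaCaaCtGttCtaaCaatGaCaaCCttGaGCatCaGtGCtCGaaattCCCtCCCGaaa
Gabrd: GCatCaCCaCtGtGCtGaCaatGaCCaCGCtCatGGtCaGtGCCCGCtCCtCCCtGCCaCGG
G and C made up 51.1% of the Gria2 stretch and 62.5% of the Grik5 stretch, and 43.5% of the Gabra2 stretch against 62.9% of that of Gabrd. Over the whole transcript with the longest coding sequence, the share was 36.8% for Gria2, 62.3% for Grik5, 38.4% for Gabra2 and 56.8% for Gabrd. The 39 members ranged from 35.3% (Gabrg1) to 65.0% (Grin2d), with a median of 47.6%, against a median of 50.7% over all genes with a value.

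Levels of most members varied with the no-feature share, in opposite directions for different subunits. Most AMPA and GABA-A subunits were scarce in libraries of a low share, while Grin1, Grik5, Grm2 and Gabrd were abundant there. Gria2, the subunit that makes AMPA receptors impermeable to calcium, had 26, 139 and 190 CPM (lowest, median and highest) in the 5 hippocampal libraries under 12% and 191, 666 and 1134 in the 19 others. In frontal cortex it had 16.3, 66.5 and 95.8 in the 7 libraries under 12% and 122, 672 and 936 in the 17 others. The ranges did not overlap in either tissue, by a narrow margin in hippocampus. Within the libraries under 12% the levels did not follow the share: the lowest hippocampal value, 26 CPM, was in the library of 11.5%, the highest share of the 5. Grik5, a high-affinity kainate subunit, went the other way, with 401, 616 and 917 CPM in the hippocampal libraries under 12% and 218, 261 and 287 in the others, and 386, 576 and 668 against 216, 256 and 317 in frontal cortex.

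**Figure D1:**
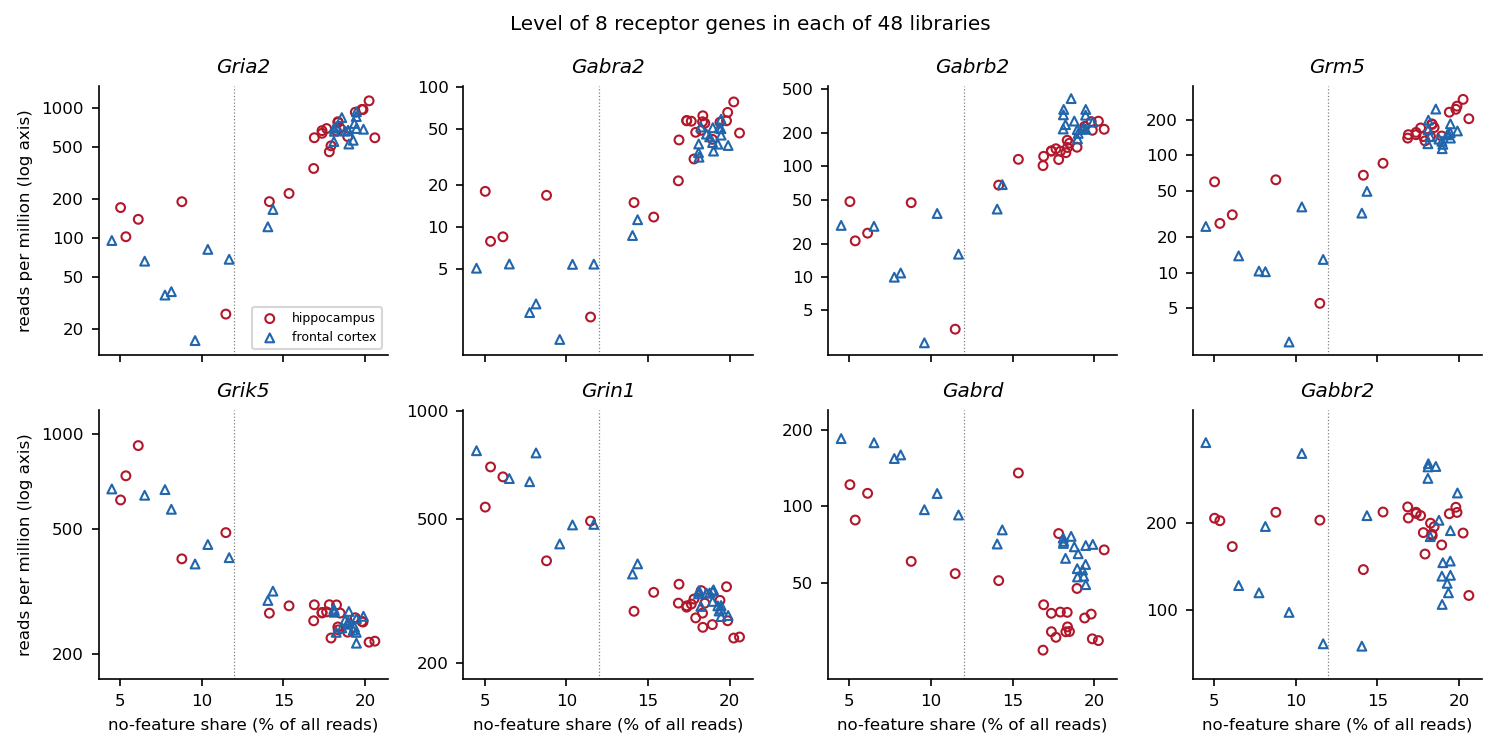
Level of 8 members (CPM, log axis) against the no-feature share (percent of all reads) in each of 48 libraries, with hippocampus and frontal cortex in separate symbols. Gria2 was at 190 CPM or less in every library under 12%, while Grik5 was at 386 or more in all of them.

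The coefficient of the no-feature share, in log2 units per 10 percentage points and beside a mean for each group, was tested with limma over all genes. It passed an adjusted p of 0.05 for 32 of 39 members in hippocampus, where 83.9% of all 15062 genes tested passed (42.7% with a higher and 41.2% with a lower level at a higher share), and for 31 of 39 in frontal cortex, where 83.7% of 15040 did (42.1% higher and 41.6% lower). The members' share is close to that of all genes. Of the members, 22 rose with the no-feature share in both tissues and 8 fell in both, 3 passed in 1 tissue only and 6 in neither. No member passed with opposite signs in the 2 tissues.

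All 4 AMPA subunits rose with the no-feature share in both tissues. The coefficient of Gria2 was 2.27 ± 0.29 (SE) in hippocampus (limma adjusted p = 2.15e-07) and 3.27 ± 0.28 in frontal cortex (adjusted p = 2.91e-10). Gria1, which encodes the subunit most tied to activity-dependent insertion of AMPA receptors, had the smallest of the family, 0.57 ± 0.19 in hippocampus (adjusted p = 0.00806) and 0.21 ± 0.10 in frontal cortex (adjusted p = 0.0487). The cortical call of Gria1 was lost with edgeR (adjusted p = 0.0512), the deposited scaling (0.0512) and the replicate number as a block (0.295), and the hippocampal one with the block (0.0616). Gria3 (2.04 and 2.83) and Gria4 (1.93 and 2.28) lay between Gria1 and Gria2 in hippocampus and in frontal cortex. Of the kainate subunits, Grik1 and Grik2, which form low-affinity channels, rose in both tissues, with 1.69 ± 0.11 and 2.02 ± 0.10 for Grik2. Grik5 fell, by 1.12 ± 0.08 in hippocampus and by 1.02 ± 0.06 in frontal cortex (adjusted p = 1.94e-11 and 8.5e-13).

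Of the 6 NMDA subunits, 3 fell, 1 rose and 2 did not pass in each tissue. Grin1, which every NMDA receptor needs, fell by 0.85 ± 0.07 in hippocampus and by 0.95 ± 0.06 in frontal cortex (limma adjusted p = 1.74e-10 and 2e-12), and Grin2c and Grin2d, which encode glutamate-binding subunits, fell in both tissues too. Grin3a, a glycine-binding subunit, rose in both (0.54 and 0.36). Grin2a and Grin2b, the main glutamate-binding subunits of forebrain NMDA receptors, did not pass in either tissue, with coefficients of -0.44 ± 0.34 and -0.44 ± 0.37 in hippocampus and of 0.35 ± 0.35 and 0.69 ± 0.32 in frontal cortex. The cortical value of Grin2b passed with edgeR (0.77, adjusted p = 0.0275) and DESeq2 (adjusted p = 0.0131). Among the metabotropic receptors, Grm5, Grm7 and Grm8 rose and Grm2 and Grm4 fell in both tissues. Grm5, which couples to phospholipase C, had 2.17 ± 0.32 and 3.09 ± 0.31, whereas Grm2, a presynaptic receptor that lowers cyclic AMP, had -1.14 ± 0.20 and -1.13 ± 0.09.

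GABA-A subunits went both ways. Gabra2, Gabra3, Gabra4, Gabra5, Gabrb1, Gabrb2 and Gabrg1 rose in both tissues. For Gabrb1 the hippocampal call was lost with edgeR (adjusted p = 0.0547) and DESeq2 (0.0512). With limma it was also lost with the replicate number as a block (adjusted p = 0.113), without the libraries of high striatal markers (0.0626) and without those under 12% (0.0598). The hippocampal call of Gabra5 was lost with the block (limma adjusted p = 0.135) and without libraries under 12% (0.286). Gabrb2, a beta subunit of common synaptic GABA-A receptors, had 2.36 ± 0.37 in hippocampus and 3.49 ± 0.36 in frontal cortex. Gabra2, an alpha subunit of synaptic receptors, had 2.13 ± 0.31 and 3.11 ± 0.25. Gabrg1 had 2.37 ± 0.38 and 3.36 ± 0.25. Gabrd, which encodes the subunit of receptors outside synapses that carry tonic inhibition, fell by 1.11 ± 0.19 and by 1.07 ± 0.09. Both calls of Gabrd were lost without libraries under 12% (limma adjusted p = 0.192 in hippocampus and 0.244 in frontal cortex). Gabra5 had smaller coefficients than the other alpha subunits, 0.53 ± 0.22 and 0.74 ± 0.18. Of the GABA-B subunits, Gabbr1, which binds GABA, fell (-0.66 ± 0.05 and -0.71 ± 0.07), and Gabbr2, which couples the receptor to G proteins, did not pass (-0.04 ± 0.10 and 0.04 ± 0.26).

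The sign of the coefficient followed the base composition of the transcript. Of the 8 members with at least 55% G and C (Gabbr2, Gabrd, Grik5, Grin1, Grin2c, Grin2d, Grm2 and Grm4), 7 fell and none rose in each tissue. Of the 13 under 45%, 11 rose in hippocampus and 12 in frontal cortex and none fell. Across the 39 members, Pearson's r between transcript G and C content and the coefficient was -0.81 in hippocampus (Spearman's rho -0.78) and -0.83 in frontal cortex (rho -0.86). Across all genes with a value it was -0.78 (13758 genes) and -0.80 (13760 genes), so the members followed a relation that was present in the whole table. These correlations are across genes of the same libraries, which are not independent, and no p is given. With exon length, on a log2 scale, the members' r was 0.07 and 0.15, against 0.42 and 0.37 over all genes with a value. With the span of the gene on the chromosome, also log2, r was 0.36 and 0.33 for the members. Over all genes with a value it was 0.39 and 0.36. Whether base composition or another property of the libraries set the levels was not tested.

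**Figure D2:**
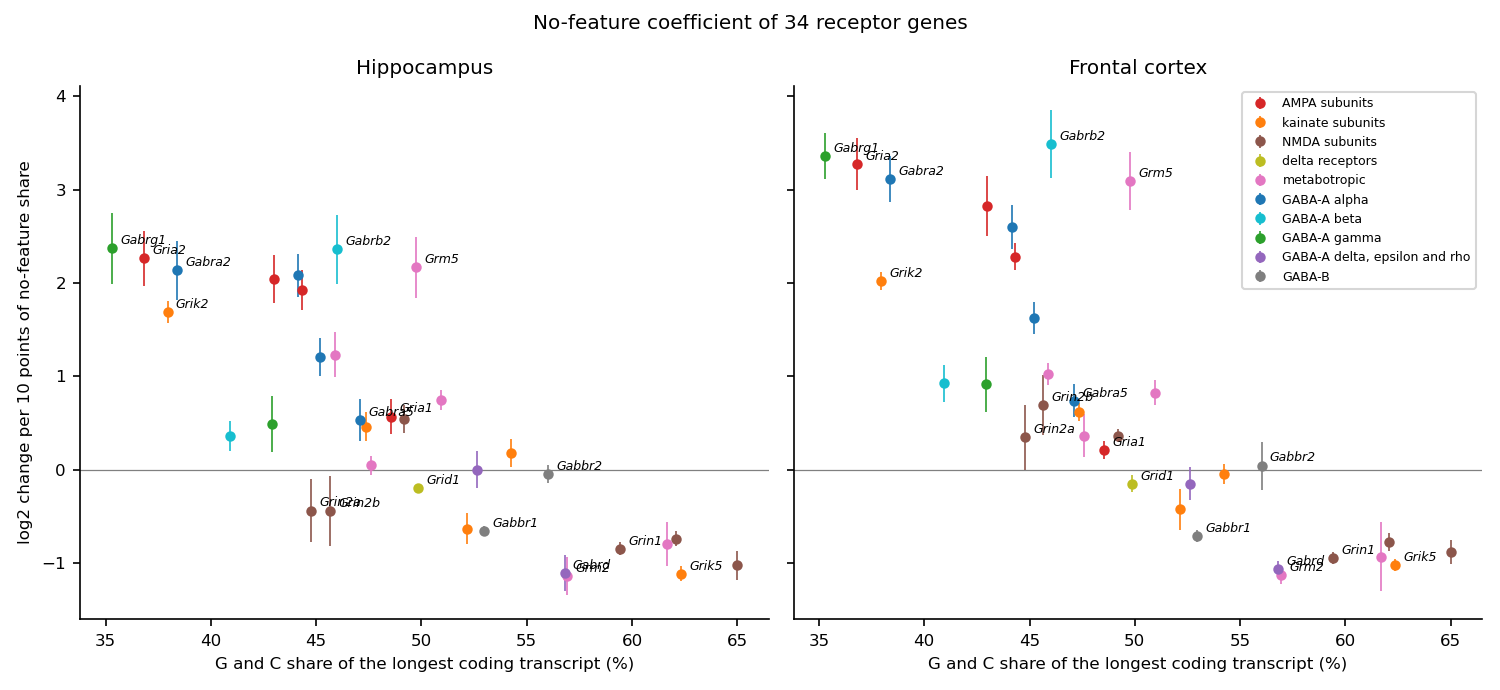
Coefficient of the no-feature share (log2 per 10 percentage points, with SE) against G and C content of the transcript (percent) for 34 members, by tissue. Members run from Gabrg1 at 35.3%, with coefficients above 0, to Grin2d at 65.0%, with coefficients below 0.

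Within libraries of a no-feature share of 12% or more the relation was smaller in number but alike in sign. There 17 members passed in hippocampus (46.0% of all genes did) and 20 in frontal cortex (44.0%), all 17 and all 20 with the sign they had over all libraries. Gria2 had 3.38 and 4.86 in these libraries and Grik5 -0.62 and -0.53. Calls lost there with the same sign included Gabrd in both tissues and Gabbr1 in frontal cortex (limma adjusted p = 0.208 for Gabbr1). In hippocampus they included Grm2 (limma adjusted p = 0.201), Grin2c (0.0819), Grin2d (0.152) and Gria1 (0.146). Of the members that passed over all libraries, 29 of 32 and 29 of 31 kept their sign, and the exceptions included Grik4 and Grin3a in hippocampus and Gabra5 and Gria1 in frontal cortex, which were not past the threshold in these libraries. Without overlap between libraries under 12% and the others were 16 of 39 members in hippocampus and 12 of 39 in frontal cortex, against 42.8% and 38.3% of all genes.

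Hippocampus and frontal cortex differed in 17 of 39 members over the 4 conditions (limma, adjusted p under 0.05), with 6 higher and 11 lower in hippocampus. Of all 14844 genes tested 25.7% passed, 12.0% higher and 13.8% lower, so that members passed more often than the background share. The members higher in hippocampus were Grik4, Gabrr2, Gria1, Gabra5, Gabrb1 and Grid1, and those lower included Grm8, Grm4, Grik3, Gabra3, Gria4, Gabrd, Grm2, Gabrg3, Grin2d and Grin2c. The levels of no member were free of overlap between the tissues over all 48 libraries (0.202% of genes were). Among libraries of 12% or more, those of Gabrr2 and Grm8 were, 2 of 39 against 1.01%.

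Kainate subunits differed in opposite directions. Grik4, a high-affinity kainate subunit known from hippocampal mossy fibre synapses, had 23.5, 60.7 and 120 CPM in hippocampus and 10.8, 20.9 and 47.5 in frontal cortex, a log2 difference of 1.49 ± 0.15 (adjusted p = 1.48e-10). Grik3, a low-affinity subunit, had 41.6, 73.1 and 167 in hippocampus and 146, 199 and 286 in frontal cortex (-1.36 ± 0.09, adjusted p = 2.09e-15). The 2 ranges of Grik3 met only through the hippocampal libraries of high striatal markers, which held 109 to 167, against 41.6 to 94.4 in the other 19. Grik1, Grik2 and Grik5 did not pass.

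Gria1 had 343, 1277 and 1490 CPM in hippocampus and 381, 551 and 732 in frontal cortex (0.92 ± 0.12, adjusted p = 4.92e-08). Gria4, an AMPA subunit with fast kinetics, was lower in hippocampus, with 8.27, 69.3 and 124 against 24, 160 and 251 (-1.01 ± 0.33, adjusted p = 0.0193). The ranges overlapped, also among libraries of a no-feature share of 12% or more. Gria2 differed by 0.56 ± 0.46 and Gria3 by 0.04 ± 0.42, both without passing. Among NMDA subunits Grin2c (-0.39 ± 0.13) and Grin2d (-0.46 ± 0.17) were lower in hippocampus. The Grin2d call was lost with edgeR (adjusted p = 0.0663), DESeq2 (0.0704) and median-of-ratios scaling (0.0521). Grin1 (-0.19 ± 0.14), Grin2a (0.40 ± 0.24) and Grin2b (-0.42 ± 0.25) did not pass. Each passed under 1 alternative with limma. Grin1 did so in a fit that held the no-feature share as a term (-0.15, limma adjusted p = 0.00375). Grin2b passed without libraries under 12% (-0.74, limma adjusted p = 0.0303). Grin2a passed without the libraries of high striatal (hippocampus) and low bulb (cortex) markers (0.85, limma adjusted p = 0.0322). Grid1, a delta receptor, which binds cerebellin at synapses and carries little current of its own, was higher (0.39 ± 0.06, adjusted p = 3.37e-07).

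All 3 metabotropic receptors that passed were lower in hippocampus and lower cyclic AMP through inhibitory G proteins. Grm8 had 1.27, 6.75 and 11.9 CPM in hippocampus and 8.0, 24.3 and 34.3 in frontal cortex (-1.90 ± 0.21, adjusted p = 8.68e-10). Grm4 had 7.6, 15.4 and 53.1 against 21.2, 77.9 and 217 (-1.87 ± 0.25, adjusted p = 6.36e-08), and Grm2 differed by -0.70 ± 0.20 (adjusted p = 0.00520). Both tissues' ranges overlapped for these 3 genes. The call of Grm2 was lost without the libraries of high striatal (hippocampus) and low bulb (cortex) markers (-0.55, limma adjusted p = 0.0699). Grm5, which binds Homer scaffolds, differed by 0.78 ± 0.45 and did not pass. It passed in a fit that held the no-feature share as a term (0.67, limma adjusted p = 0.0120).

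Gabra5, which encodes the alpha subunit of extrasynaptic receptors in hippocampal pyramidal neurons, had 37.7, 164 and 231 CPM in hippocampus and 40.3, 72.0 and 134 in frontal cortex (0.85 ± 0.17, adjusted p = 8.65e-05). Gabra3 was lower, with 17.3, 63.9 and 127 against 28.5, 170 and 262 (-1.18 ± 0.25, adjusted p = 0.000195), and so was Gabrd, with 27.2, 38.3 and 135 against 49.2, 71.3 and 185 (-0.76 ± 0.19, adjusted p = 0.00150). Gabra2 (0.74 ± 0.44) and Gabrb2 (0.05 ± 0.51) did not pass. Gabra2 passed in a fit that held the no-feature share as a term (0.63, limma adjusted p = 0.00937). Gabrb1 was higher in hippocampus (0.46 ± 0.16), a call lost with edgeR (adjusted p = 0.0767) and without libraries under 12% (limma adjusted p = 0.152). Gabrg3 was lower (-0.61 ± 0.23), a call lost with median-of-ratios scaling (adjusted p = 0.0527). It was also lost without the libraries of high striatal (hippocampus) and low bulb (cortex) markers (limma adjusted p = 0.144). Gabrr2, a rho subunit best known from the retina, was measured on few reads, with 0.57, 1.11 and 2.20 CPM in hippocampus and 0.26, 0.43 and 0.83 in frontal cortex (1.29 ± 0.13, adjusted p = 2.9e-11). Gabbr1 and Gabbr2 differed by 0.03 ± 0.11 and 0.17 ± 0.14 and did not pass. In GENCODE vM21 another coding gene overlaps Grin3a on the same strand and 1 overlaps each of Gabra4, Gabra5, Gabrb1 and Grin2d on the opposite strand, and the strand setting of the counting is not given in the sources used here, so reads of these 5 members may include a neighbour's.

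The libraries of high striatal and of low bulb markers bore on this comparison. When the 19 hippocampal libraries of low striatal markers were set against the 7 frontal cortex libraries of low bulb markers, an alternative chosen after seeing the data in which 3 of the 4 cortical conditions had 1 library each, 11 members passed (12.9% of genes did), 9 of them among the 17. Grik4 (1.01), Gria1 (1.42), Gabra5 (1.63), Gabrr2 (1.49), Grik3 (-1.16), Grm8 (-2.13), Gabra3 (-1.93) and Gabrg3 (-1.48) were among those that remained. Grm4 differed by -0.62 (adjusted p = 0.275), Grm2 by -0.13, Grin2c by 0.04, Grin2d by -0.02, Gabrb1 by 0.05 and Grid1 by 0.15, all without passing. Gabrd (-0.99, adjusted p = 0.0695) and Gria4 (-1.24, adjusted p = 0.189) did not pass either, with differences larger than over all 48 libraries. Gabbr2 (-0.57, adjusted p = 5.2e-05) and Grm3 (-0.81) passed in these 26 libraries and not over all 48. Gabbr2 also passed with the opposite sign, 0.56 (limma adjusted p = 0.000904), when the hippocampal libraries of high striatal markers and the cortical ones of low bulb markers were left out, so its direction between the tissues depended on which cortical libraries were used. Within frontal cortex, Grm4 was 21.2 to 46.8 CPM in the 7 libraries of low bulb markers and 52.9 to 217 in the other 17, and Gabbr2 was 254 to 380 against 74.9 to 212. The part of neighbouring tissue in the differences was not tested. With the libraries under 12% left out 19 members passed (44.5% of genes), 16 of them among the 17, and 24 did (50.1%), all 17 among them, in a fit that held the no-feature share as a term.

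**Figure D3:**
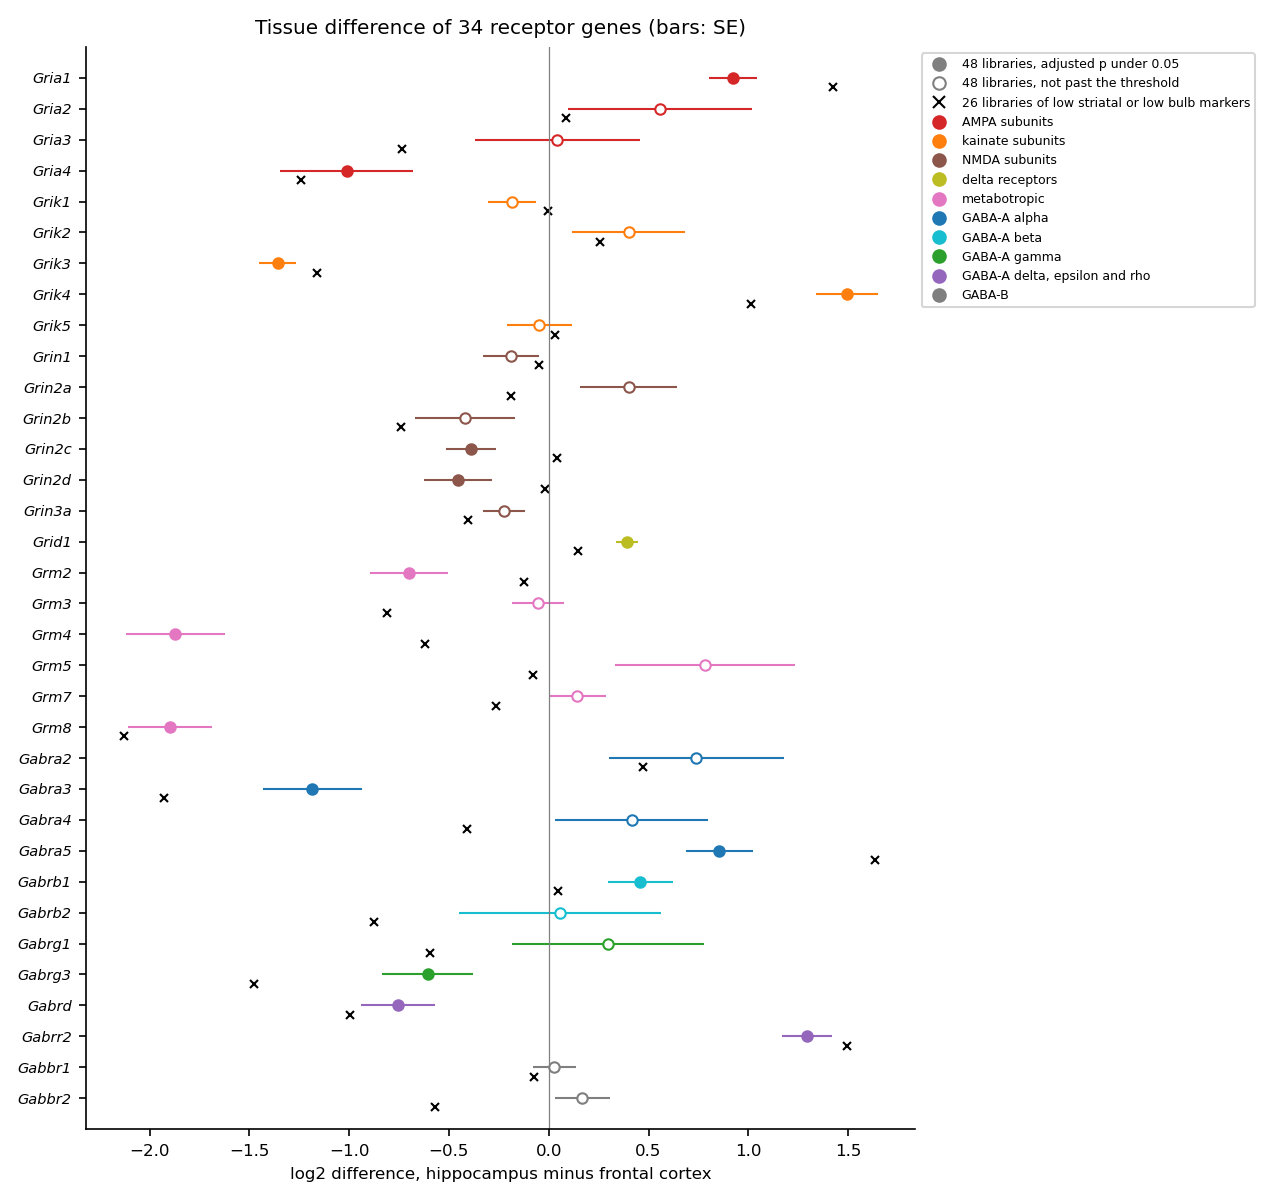
Log2 difference of hippocampus minus frontal cortex for 34 members, with SE over all 48 libraries and crosses for the 26 libraries of low striatal (hippocampus) or low bulb (frontal cortex) markers. Grik4 and Gabrr2 lie farthest to the right, at 1.49 and 1.29, and Grm8 and Grm4 farthest to the left, at -1.90 and -1.87, with the cross of Grm4 at -0.62.

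Proteins that travel with or anchor these receptors were counted in the same comparison. Of 18 auxiliary subunits of ionotropic glutamate receptors, 5 were higher and 7 lower in hippocampus. Shisa6, which slows the desensitisation of AMPA receptors, was higher by 2.61 ± 0.22 (adjusted p = 6.53e-13), Cnih2 by 1.26 ± 0.24 and Cacng8, the AMPA receptor regulator known from hippocampus, by 0.80 ± 0.13. Cacng5 (-1.66 ± 0.38), Olfm2 (-1.08 ± 0.24), Gsg1l (-0.92 ± 0.16) and Cacng3 (-0.77 ± 0.14) were lower. Of 19 scaffold genes, 3 were higher and 4 lower, with Homer3, a scaffold of metabotropic receptors, higher (2.33 ± 0.23) and Grip2, an AMPA receptor anchor, lower (-2.25 ± 0.20). Of 14 GABA receptor partners tested (of 15 listed), 1 was higher, Shisa7 (0.34 ± 0.06), which is also in the auxiliary list, and none was lower.

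The composition of each receptor family was set out per kilobase of exon, the sum of CPM of a gene divided by the length of its merged coding-transcript exons in GENCODE vM21. The gene models behind the deposited values are not given in the sources used here, so lengths that differ from theirs would shift these shares. In hippocampus Gria1 made up 67.6% ± 11.7 of AMPA signal per kilobase (SD, n = 24) and Gria2 16.8% ± 6.3, and in frontal cortex Gria1 53.8% ± 21.8 and Gria2 18.3% ± 9.8 (n = 24). The share of Gria1 ran from 47.8% to 96.8% in hippocampus and from 30.0% to 94.5% in frontal cortex. It was 85.6% ± 7.7 in the 5 hippocampal libraries under 12% no-feature and 62.9% ± 7.0 in the 19 others, and 82.3% ± 8.4 in 7 and 42.0% ± 12.5 in 17 cortical libraries. The share of Gria1 thus differed more between these sets of libraries of 1 tissue than between the tissues.

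**Figure D4:**
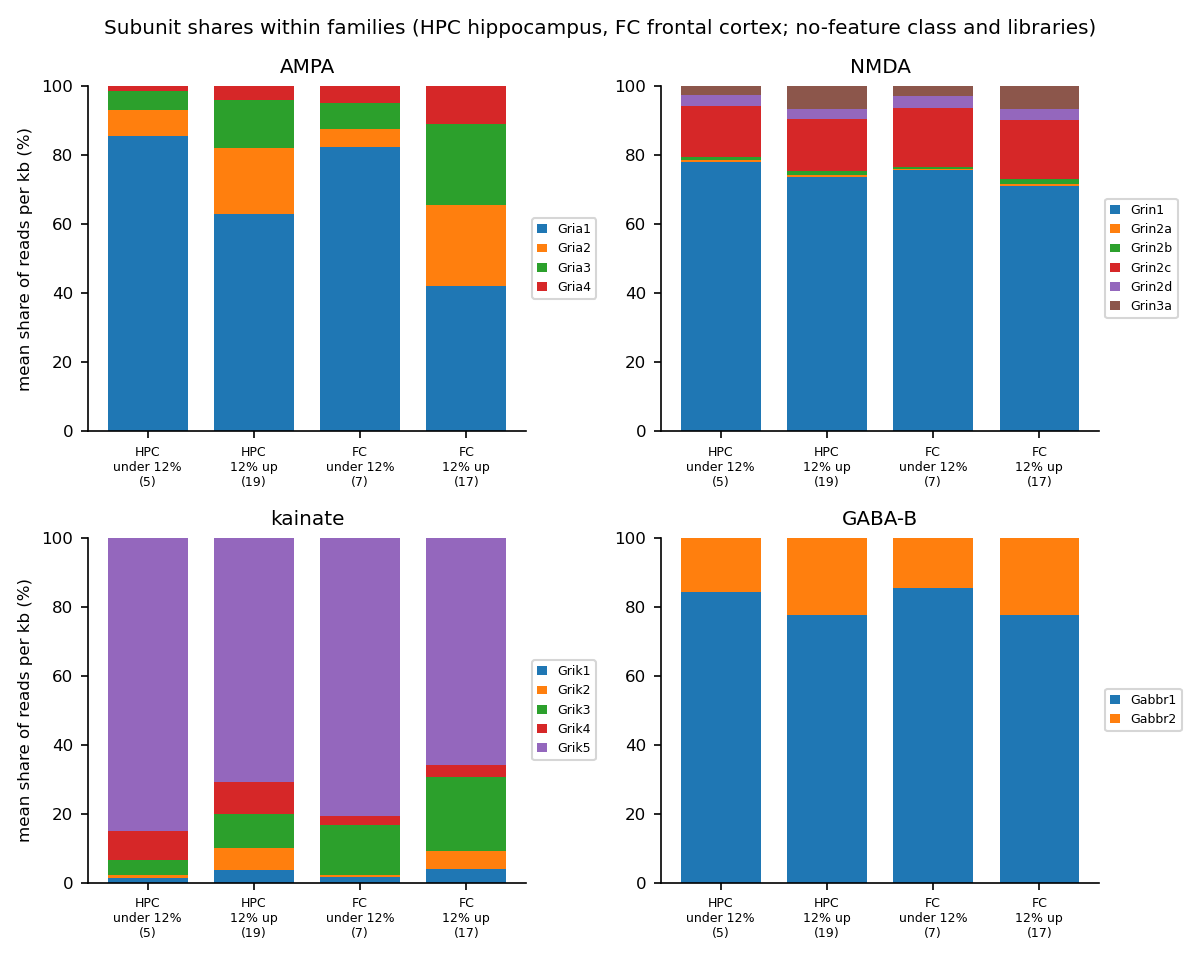
Mean share of each subunit in the AMPA, NMDA, kainate and GABA-B families (percent of reads per kilobase), by tissue, with libraries under 12% no-feature to the left of those of 12% or more in each pair of bars. Gria1 takes 85.6% and 62.9% of the AMPA family in hippocampus and 82.3% and 42.0% in frontal cortex.

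Among NMDA subunits Grin1 held 74.6% ± 2.7 in hippocampus and 72.4% ± 3.8 in frontal cortex. Of the glutamate-binding subunits, Grin2c took 78.1% ± 5.7 in hippocampus and 78.1% ± 4.4 in frontal cortex, Grin2d 14.3% ± 4.2 and 14.6% ± 2.0, Grin2b 4.6% ± 3.5 and 5.3% ± 4.1, and Grin2a 3.1% ± 2.4 and 2.1% ± 1.8. Grin2a and Grin2b have 15.0 and 24.8 kb of exon by this annotation, the longest of the members, and Grin2c 5.0 kb. By reads alone Grin2c held 61.9% of this group in each tissue. Textbook accounts give Grin2a and Grin2b as the main forebrain forms, and the rank found here goes against them. The shares are not corrected for base composition. Transcript G and C content was 62.1% for Grin2c and 65.0% for Grin2d, against 44.8% for Grin2a and 45.7% for Grin2b. Median reads per library were 217.5 for Grin2a and 608.5 for Grin2b in hippocampus, and 181 and 696 in frontal cortex. Whether base composition or another property of the libraries set this rank was not tested.

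Grik5 held 73.7% ± 6.9 of kainate signal in hippocampus and 70.3% ± 7.9 in frontal cortex. Grik4 had 9.1% ± 2.2 in hippocampus and 3.1% ± 1.3 in frontal cortex, and Grik3 8.8% ± 3.9 and 19.3% ± 5.0. Of alpha subunit signal, Gabra5 made up 40.2% ± 15.5 in hippocampus and 25.5% ± 15.0 in frontal cortex, and Gabra3 12.7% ± 5.8 and 28.8% ± 4.3. Without the libraries under 12%, Gabra5 was at 34.1% ± 9.0 in hippocampus (n = 19) and 19.1% ± 8.8 in frontal cortex (n = 17). Gabbr1 led the GABA-B pair, with 79.0% ± 4.3 in hippocampus and 79.9% ± 6.9 in frontal cortex. Of metabotropic signal, Grm5 (24.2% ± 10.9) and Grm2 (24% ± 13.9) had the highest shares in hippocampus, and Grm2 (27.9% ± 11.9) and Grm4 (17% ± 10.4) in frontal cortex, where Grm4 fell to 5.6% ± 2.2 in the 7 libraries of low bulb markers, against 21.7% ± 8.6 in the other 17.

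Whether stress or esomeprazole changed the members was asked in 16 comparisons. In each tissue these were the stress effect in vehicle mice, in esomeprazole mice and on average, the drug effect in stressed mice, in non-stressed mice and on average, and the interaction, and 2 more compared the average effects between the tissues. No member passed the adjusted threshold in any of the 16 with limma, edgeR or DESeq2. In the background, limma called 0.0% of genes in 15 of them and 0.0133% (2 of 15062 genes) for stress in hippocampus averaged over the drug arms. DESeq2 called 127 genes there, 68 for stress in hippocampal esomeprazole mice, 15 for the stress effect between the tissues, 10 for stress in frontal cortex averaged over the drug arms and at most 1 in each other comparison, and edgeR called 7 genes for stress in hippocampus, 1 for stress in frontal cortex and 0 elsewhere. At an unadjusted p under 0.05, the number of members ran from 0 to 6 of 39 per comparison with limma and from 0 to 7 with edgeR and with DESeq2. The largest numbers with limma were 6 for stress in hippocampus, averaged and within esomeprazole mice, and 4 for the difference of the stress effect between the tissues.

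**Figure D5:**
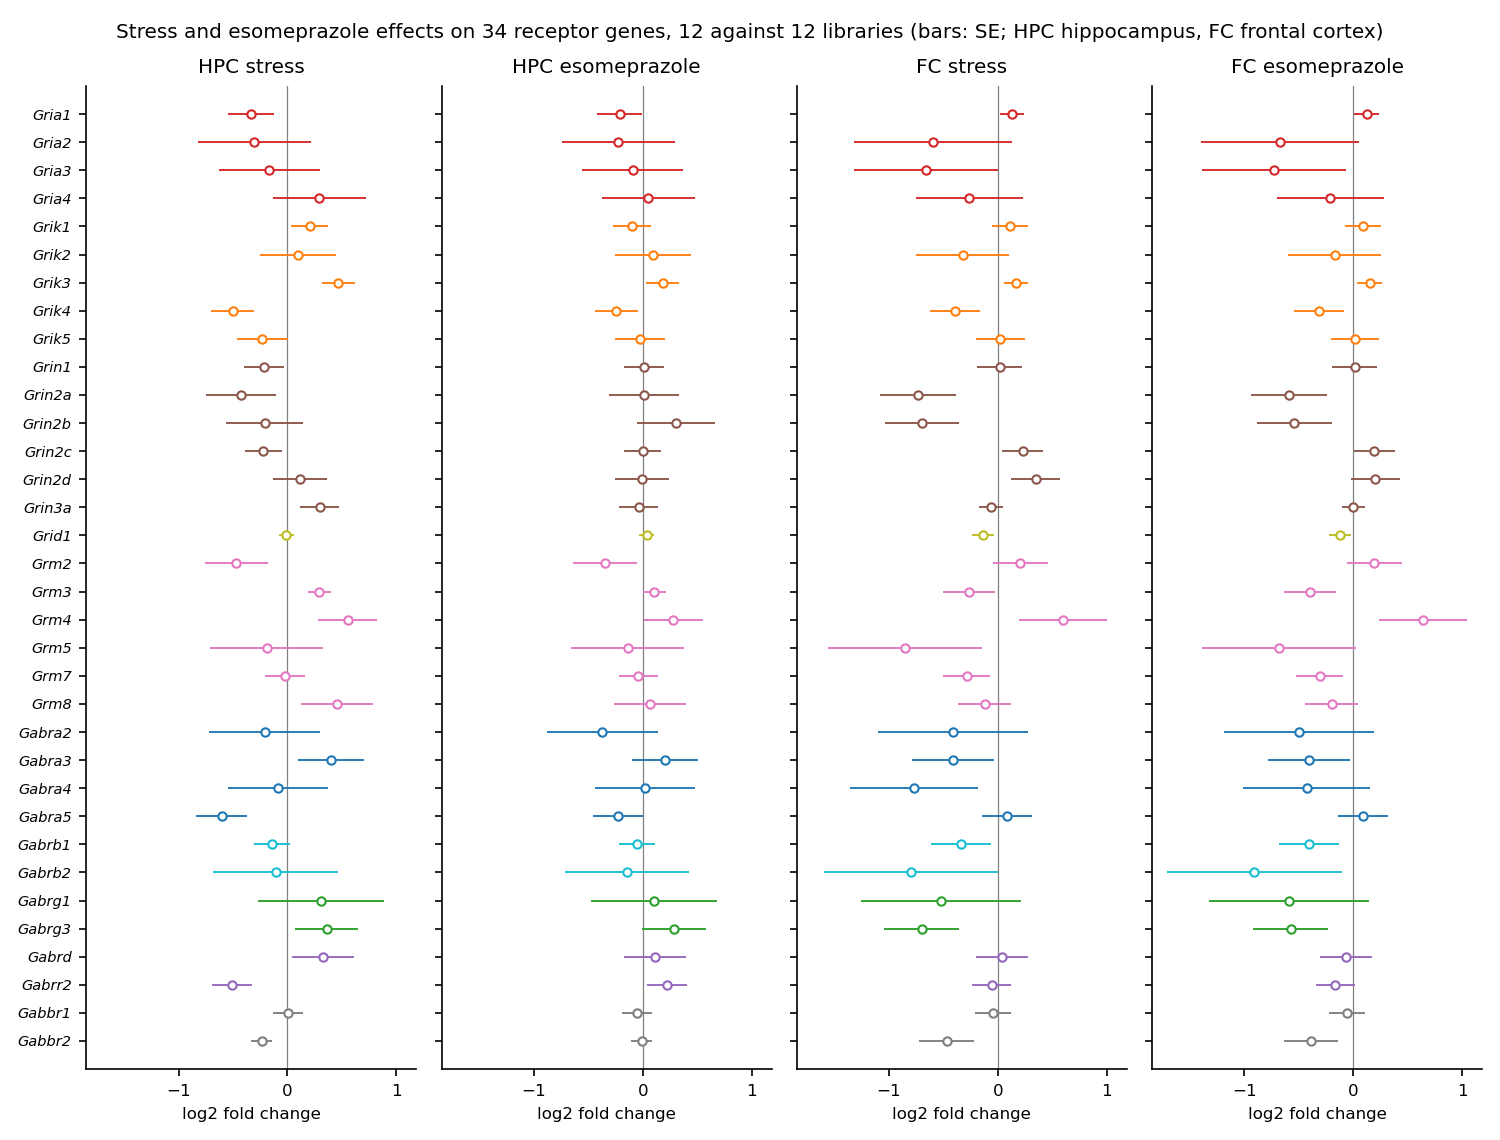
Log2 fold changes (with SE) of 34 members for stress and for esomeprazole, each averaged over the arms of the other factor (12 against 12 libraries), in hippocampus and frontal cortex. For stress in hippocampus Grik3 lies at 0.47 and Gabra5 at -0.60, and in frontal cortex Grin2a lies at -0.74, none past the adjusted threshold.

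For stress in hippocampus, the smallest p belonged to Grik3. It had 67.4, 111 and 167 CPM in stressed esomeprazole and 60.4, 68.9 and 134 in stressed vehicle mice, against 41.6, 68.5 and 83.6 in non-stressed esomeprazole and 61.7, 71.9 and 82.6 in non-stressed vehicle mice. The high values were in some stressed libraries only, and all ranges overlapped. The log2 difference was 0.47 ± 0.15 averaged over the drug arms (limma adjusted p = 0.623) and 0.81 ± 0.21 within esomeprazole mice (adjusted p = 0.540). Next were Grm3, a presynaptic and glial metabotropic receptor (0.29 ± 0.10, adjusted p = 0.705), Gabrr2 (-0.51 ± 0.18, adjusted p = 0.708) and Gabra5 (-0.60 ± 0.23, adjusted p = 0.718).

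Gabra5 had 37.7, 109 and 197 CPM in stressed esomeprazole and 81.5, 166 and 231 in stressed vehicle mice, against 151, 200 and 205 in non-stressed esomeprazole and 93.8, 174 and 201 in non-stressed vehicle mice. Within esomeprazole mice its stress difference was -1.06 ± 0.33 (adjusted p = 0.574), and that of Grm4 1.14 ± 0.38 (adjusted p = 0.590). These genes moved with the striatal markers. The 5 hippocampal libraries with high striatal markers, each from a stressed mouse, had Grik3 at 109, 134 and 167 CPM, against 41.6, 70.8 and 94.4 in the other 19, without overlap, and Grm4 at 29.9, 37.1 and 53.1, against 7.6, 14.9 and 38.4. Gabra5 was at 37.7, 82.1 and 120, against 81.5, 178 and 231, and Grik4 at 23.5, 37.6 and 44.6, against 45.5, 65.9 and 120. Leaving out those 5 libraries removed 4 of the 6 from stressed esomeprazole mice. Replicate 5, among the few left, had a no-feature share of 11.5%. Without those 5 libraries the stress difference within esomeprazole mice was 0.28 ± 0.22 for Grik3, 0.42 ± 0.50 for Grm4 and -0.42 ± 0.35 for Gabra5, while that of Gabrr2 was -1.05 ± 0.40 (not past the adjusted threshold), against -0.86 ± 0.26 with them. A further limma fit held a striatal marker score as a term, the mean log2 deviation of these markers from the tissue mean. There 1 member had an unadjusted p under 0.05 for stress in hippocampus, averaged and within esomeprazole mice, against 6 without the score. For esomeprazole in stressed mice and for the interaction, 0 members did, against 2 in each without the score. Whether the striatal markers set these values was not tested.

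Stress in vehicle mice gave no member of p under 0.05 in hippocampus, and the 4 of smallest p were Gabbr2 (-0.27 ± 0.14), Grm3 (0.21 ± 0.15), Grin2c (-0.30 ± 0.24) and Gabrg3 (0.47 ± 0.41). For esomeprazole in hippocampus, averaged over the stress arms, the 4 were Gabrr2 (0.23 ± 0.18), Grik3 (0.18 ± 0.15), Grik4 (-0.24 ± 0.20) and Grm2 (-0.35 ± 0.29), and none had p under 0.05. Within non-stressed mice Gabrr2 differed by 0.58 ± 0.26, and within stressed mice Grik3 by 0.53 ± 0.21 and Grm4 by 0.87 ± 0.38. The interaction of stress and drug was 0.68 ± 0.30 for Grik3 and 1.18 ± 0.54 for Grm4. These 5 values had an unadjusted p under 0.05 and none passed after adjustment, and 4 of the 6 stressed esomeprazole libraries were those of high striatal markers.

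In frontal cortex the smallest p for stress belonged to Grin2a, averaged over the drug arms (-0.74 ± 0.35, limma adjusted p = 0.941), and to Gabbr2 in vehicle mice (-0.87 ± 0.36, adjusted p = 0.755). Gabbr2 had 74.9, 155 and 286 CPM in stressed esomeprazole and 76.4, 147 and 254 in stressed vehicle mice, against 105, 128 and 348 in non-stressed esomeprazole and 131, 313 and 380 in non-stressed vehicle mice. The non-stressed vehicle group stood above the others in its median, and it held 4 of the 7 libraries of low bulb markers, in which Gabbr2 was at 254, 314 and 380, against 74.9, 131 and 212 in the other 17. Without those 7, which removed 4 of the 6 non-stressed vehicle libraries, the stress difference of Gabbr2 in vehicle mice was -0.37 ± 0.40. Grin2a had median levels of 3.61 CPM in stressed esomeprazole, 4.74 in stressed vehicle, 6.93 in non-stressed esomeprazole and 9.19 in non-stressed vehicle mice. Grin2b and Gabrg3 had differences of -0.69 ± 0.34 and -0.70 ± 0.34 for stress averaged over the drug arms, with p just over 0.05.

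For esomeprazole in frontal cortex, the members of smallest p averaged over the stress arms included Grin2a (-0.59 ± 0.35), Gabrg3 (-0.58 ± 0.34) and Grm3 (-0.39 ± 0.24), none under 0.05. Within non-stressed mice Gabbr2 differed by -0.79 ± 0.36, at an unadjusted p under 0.05 but without passing after adjustment. Within stressed mice and for the interaction no member had p under 0.05. Gabbr2 shared its non-stressed vehicle libraries between the stress and the drug comparison, so both values rest on the same 6 libraries.

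The stress effect differed between the tissues at an unadjusted p under 0.05 in 4 members, among them Gabrg3 (1.05 ± 0.46), Grm3 (0.55 ± 0.26) and Gabra5 (-0.69 ± 0.34), and the esomeprazole effect in no member. Adjusted p was 0.948 for each of the 4. Over the 16 comparisons the log2 difference of Gria1 ran from -0.46 to 0.17, of Grin1 from -0.29 to 0.15, of Gabbr1 from -0.16 to 0.19 and of Gabrd from -0.16 to 0.56. The range was wider for Gria2, from -1.07 to 0.44, for Gabra2, from -0.88 to 0.23, for Gabrb2, from -1.13 to 0.76, and for Grin2b, from -0.73 to 0.84. In every one of the 16 comparisons the median absolute difference of the members exceeded that of all genes. It was 0.45 against 0.15 for stress within hippocampal esomeprazole mice, and 0.09 against 0.08 for esomeprazole in hippocampus averaged over the stress arms. The 16 comparisons reuse the same group means, so they are not separate observations. The members also exceeded all genes for the tissue difference (0.42 against 0.19). For the no-feature share they did so in hippocampus (0.85 against 0.79) and frontal cortex (0.93 against 0.80). The larger values are thus not particular to stress or drug. A p that misses the threshold does not show that stress or drug left these genes unchanged. Of the receptor partners, none of 18, 19 and 14 to 15 tested passed in any of the 16 comparisons.

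Ratios of subunits within a library do not depend on library scaling, and they were compared for stress and for esomeprazole in each tissue by a two-sided exact permutation test within the other factor, with p adjusted over the 16 tests. The log2 ratio of Grin2a over Grin2b, which rises as forebrain NMDA receptors mature, averaged -1.28 ± 0.45 in hippocampus and -2.10 ± 0.44 in frontal cortex (SD, n = 24 each). In hippocampus it was -1.39 ± 0.52 in stressed and -1.17 ± 0.35 in non-stressed mice (exact permutation p = 0.225, adjusted p = 0.475). No ratio passed.

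The log2 ratio of Gria1 over Gria2 spread most, from 0.16 to 5.45 in hippocampus and from -0.75 to 5.45 in frontal cortex. It averaged 3.05 ± 1.44 in the 5 hippocampal libraries under 12% no-feature and 0.90 ± 0.47 in the 19 others. Gabbr1 over Gabbr2 was 2.26 ± 0.36 in stressed and 2.02 ± 0.41 in non-stressed hippocampus (SD, n = 12 each, exact permutation p = 0.146, adjusted p = 0.389). Without the libraries under 12% the means were 2.20 ± 0.36 in 10 stressed and 1.80 in 9 non-stressed libraries, a difference of 0.40 that passed (exact permutation p = 0.000535, adjusted p = 0.00857). With the 5 libraries of high striatal markers left out, 4 of them from stressed esomeprazole mice, the difference was 0.11 (exact permutation adjusted p = 0.768). Without both sets it was 0.11 as well, but replicate 6 was then the only stressed esomeprazole library left.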

How the data were processed

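Poly(A) RNA was sequenced as paired reads of 151 bases from stranded libraries, per the labels' protocols. The submitters' processing notes name STAR, HTSeq, DESeq2 and mm10 without versions or roles. The values deposited by the authors are a signal per gene and library, gene counts divided by a library factor, with a no-feature entry. Whole reads were recovered from the steps of these values, and 100% of values came out whole within 0.02. 23 gene names had turned into dates and 1 name occurred more than once, and these entries, none of them a member, were kept as entries of their own.

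The members and lists were chosen with earlier results of these data known. Reads were scaled by TMM (edgeR 4.0.16), filtered with filterByExpr (minimum count 10) and taken as log2(normalised reads + 1). The unit is not counts, so limma 3.58.1 (trend) in R 4.3.3 was used, within each tissue on 4 group means, and over both tissues for differences between them. P-values were adjusted over all genes by Benjamini-Hochberg, with a threshold of 0.05, and fold changes of low genes are understated on this scale. Levels in CPM use 1 TMM scaling over all 48 libraries. Base composition and exon length came from GENCODE vM21: 14995 of 15591 genes matched, and 14059 (90.2%) had a transcript composition. Subunit ratios were tested by exact permutation within the other factor (853776 regroupings with all libraries, fewer where libraries were left out). Python 3.11.15, numpy 2.4.6, pandas 2.3.3 and matplotlib 3.10.9 were used.

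Named genes are all members that passed. In the tissue and no-feature comparisons they are the 12 of smallest p and the largest change in each direction per family, and where none passed the 4 of smallest p. Gria1, Gria2, Grin1, Grin2a, Grin2b, Gabra2, Gabra5, Gabrd, Gabbr1 and Gabbr2 were among those always eligible. Results of some members are not reported here, although these members enter the counts and correlations over the 39. Alternatives were edgeR and DESeq2 1.42.0 on the recovered reads, median-of-ratios and the deposited scaling, a pseudocount of 5, no low-count filter, the replicate number as a block, the no-feature share or a marker score as a covariate, and leaving out libraries under 12% no-feature or of the rarer marker class. The set of libraries of low striatal or low bulb markers, and the set without both kinds of library for the ratios, were chosen after seeing the data. The limma fit was tested on simulated reads with known changes, for stress only. The simulated libraries did not differ in no-feature share or markers, so they do not show how the fit behaves with such differences.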

Additional observations from a re-analysis of the deposited data

Results flagged for a closer look

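In 21 of 104 sets of 6 libraries, 1 library stood apart from its group by Dixon's criterion. That criterion flags about 1 in 20 independent sets of normal values. The sets here are not independent, as the same libraries recur across genes and ratios, so the number cannot be held against that rate. In 19 of the 21 the library had a no-feature share under 12%. Libraries are named by their replicate number, and levels are in CPM.

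Grin1 was high in 6 groups. In hippocampus it was 495 in stressed esomeprazole replicate 5 (others 236 to 314), 541 in stressed vehicle replicate 3 (234 to 278), 656 in non-stressed esomeprazole replicate 4 (261 to 330) and 699 in non-stressed vehicle replicate 3 (285 to 384). In frontal cortex it was 765 in stressed esomeprazole replicate 3 (278 to 427) and 776 in non-stressed vehicle replicate 4 (296 to 376).

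Gabrd stood high in hippocampal stressed vehicle replicate 3 with 122 (others 29.6 to 51.0) and non-stressed esomeprazole replicate 4 with 113 (27.2 to 41.0). In frontal cortex it was 178 in stressed vehicle replicate 3 (59.1 to 92.6) and 185 in non-stressed vehicle replicate 4 (56.9 to 80.9). Gabbr1 was 1181 in hippocampal non-stressed esomeprazole replicate 4 (687 to 809), and in frontal cortex 1252 in stressed vehicle replicate 3 (662 to 879) and 1490 in non-stressed vehicle replicate 4 (621 to 915).

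Low values occurred for Gria1, with 499 in hippocampal non-stressed esomeprazole replicate 4 (others 1199 to 1490) and 885 in non-stressed vehicle replicate 3 (1271 to 1386). The log2 ratio of Gria1 over Gria2 was 5.45 in hippocampal stressed esomeprazole replicate 5 (0.16 to 1.10), and that of Gabbr1 over Gabbr2 was 2.83 in hippocampal non-stressed esomeprazole replicate 4 (1.68 to 1.90). Grin2a was 19.2 in hippocampal non-stressed vehicle replicate 1 (4.79 to 8.77). Gabbr2 was 348 in frontal cortex non-stressed esomeprazole replicate 3 (105 to 188), a library of low bulb markers and a no-feature share of 10.4%.

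The other 2 were in 1 library over 12%. Hippocampal non-stressed esomeprazole replicate 2, with a no-feature share of 19.8%, had Grin2a at 39.6 (others 4.61 to 11.5) and Grin2b at 95.5 (10.3 to 37.8).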

How the results depend on the processing

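Over 12 alternatives and the named members, 503 of 540 values of members that had passed stayed on the same side with the same sign, 34 no longer passed and 3 changed sign. Of 2352 values that had not passed, 2340 stayed so, 221 of them with the other sign. Without libraries under 12% no-feature, the no-feature coefficient passed for 17 members in hippocampus and 20 in frontal cortex, with 5 and 7 fewer libraries and a narrower range of the share. Gabra5 (-0.49) and Gria1 (-0.36) in frontal cortex and Grin3a (-0.017) in hippocampus changed sign there without passing. On the 26 libraries of low striatal or low bulb markers the tissue difference passed for 11 members and Gabbr2 reversed to -0.57, whereas it passed at 0.56 without the hippocampal libraries of high striatal and the cortical ones of low bulb markers. The stress difference of the log2 Gabbr1 over Gabbr2 ratio in hippocampus became 0.40 without libraries under 12%, the 1 ratio call among 60 values, and the cause was not tested. By reads in place of reads per kilobase, Grin1 held 65.8% of NMDA signal in hippocampus and 63.3% in frontal cortex, Grin2c 61.9% of glutamate-binding NMDA subunits in both, and Grik5 58.7% and 52.4% of kainate signal.

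No member passed for stress or esomeprazole under any alternative, with at most 12 members under an unadjusted p of 0.05 in a comparison. For stress in hippocampus over all genes limma called 2, edgeR 7 and DESeq2 127. The deposited scaling, not run for the 3 comparisons between tissues, moved the median of all genes for esomeprazole in hippocampus to 0.18, against -0.01. Same-numbered libraries correlated with a median r of 0.30 in hippocampus and 0.44 in frontal cortex, against 0.32 and 0.09 for other pairs. Across the tissues, the 24 pairs of the same condition and number had a median r of 0.43, against 0.34 for other pairs. Within the tissues 22 and 23 of 36 same-numbered pairs were over 0.1, without a count for other pairs to set beside them. The labels used here give no shared mouse or batch, so the number was not taken as a pairing. Whether same-numbered libraries share a mouse or batch was not tested. With the replicate block 17 members passed between tissues, 28 and 30 for the no-feature share in hippocampus and frontal cortex and 0 for stress or esomeprazole.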
